A study of Homo sapiens with 22 samples.

Results

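The sites described here are 450 stretches of DNA between genes, chosen by the authors' peaks of RNA polymerase II (Pol II) and of the histone mark H3K4me3 and by distance from genes. They carried a listed Pol II peak in both conditions and no listed H3K4me3 peak nearby. They were taken from the 33370 control Pol II peaks on chromosomes 1 to 22, X and Y in 4 steps. A peak had to overlap a knockdown Pol II peak by at least 1 bp (21116 peaks), be narrower than 8000 bp (20409), have no H3K4me3 peak of either condition within 1 kb (6085) and lie more than 5 kb from every RefSeq gene of any kind (450, 1.35% of all). Since the Pol II and H3K4me3 lists chose the sites, their sharing and their lack of H3K4me3 are no result, and their widths are a description with no test. Of all control Pol II peaks 63.3% were shared. The cells were THP-1, a human monocytic leukaemia line, infected with a lentivirus carrying a hairpin against QKI5, the nuclear isoform of the RNA-binding protein QKI (QKI5 knockdown), or with a control hairpin (control). For the control cells the design text says untreated and the labels say control hairpin, which is used here. The groups used were Pol II ChIP, H3K4me3 ChIP and QKI5 CLIP, with 2 samples each in knockdown and in control. ChIP maps where a protein or histone mark lies on DNA, and CLIP finds the RNA bound by a protein. Because every list combines both replicates of its group, the spread between replicates is not known, no p-value is given and the depth of the libraries is unknown.

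Pol II is known to sit outside annotated genes in several settings. It transcribes enhancers into short, unstable RNA, it runs on past the cleavage site at the 3' end of genes before it is released, and it starts at promoters that no annotation lists. H3K4me3 is the histone mark of active promoters, and enhancers usually carry little of it. The lists hold no other mark and no RNA level, so these settings cannot be told apart at any site below. A site without H3K4me3 is one without a listed peak, and weaker signal under the threshold of the authors is not shown.

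The lists give positions and no letters, and the DNA of the sites themselves is not shown. Sequences are shown for neighbours. RefSeq microRNA genes were the nearest gene at 5 sites, and another site lay next to MIR223HG, the host gene of miR-223. The mature microRNAs below were chosen because their genes are known regulators or neighbour more than 1 site, and capitals mark the seed, bases 2 to 8, through which a microRNA recognises its targets. None of the 3 shares its seed with another. miR-223 is the best known microRNA of myeloid cells, miR-29a is known for repressing collagen and DNA methyltransferase genes, and MIR573 was the nearest gene of 2 sites. All 3 sequences are RefSeq entries on GRCh38.p14.
hsa-miR-223-3p (plus strand, chrX:66018937-66018958): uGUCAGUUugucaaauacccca
hsa-miR-29a-3p (minus strand, chr7:130876748-130876769): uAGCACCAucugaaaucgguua
hsa-miR-573 (minus strand, chr4:24520252-24520275): cUGAAGUGauguguaacugaucag

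The site at MIR223HG lay at chrX:66004798-66005891 in control, in the build GRCh38.p5 that the submitters' processing notes name and that holds for all peak positions below. It was 1169 bp wide in knockdown and 1094 bp in control, and the knockdown peak covered the whole control peak. It lay on the 5' side of the MIR223 hairpin, and the nearest H3K4me3 peak was 3457 bp away in knockdown and 3391 bp in control. The site nearest to MIR29A, chr7:130868196-130869093, was 631 bp wide in knockdown and 898 bp in control and lay on the 3' side of the hairpin. The sites nearest to MIR573 also lay on its 3' side. One, chr4:24508172-24509839, was 1571 bp wide in knockdown and 1668 bp in control, and the other, chr4:24510592-24511408, was 6539 bp wide in knockdown and 817 bp in control.

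The promoters of a pair of neighbouring genes are shown as examples. Both are RefSeq entries of 250 bases before and 50 bases after a gene start, and capitals mark CpG dinucleotides. ZNF207, whose product helps chromosomes attach to the spindle, was nearest to the widest site on a known 3' side within 20 kb of its gene. CEBPA, a master transcription factor of myeloid cells, was nearest to a site on its 3' side. A start was shown only if all 4 ChIP lists held a peak there, and the rule left only Pol II peaks at the sites. The contrast between start and site is therefore no result. Over the ZNF207 start the Pol II peak was 5313 bp wide in knockdown and 3320 bp in control, and the H3K4me3 peak 9341 bp in knockdown and 9458 bp in control. Over the CEBPA start the Pol II peak was 16924 bp wide in knockdown and 12256 bp in control, and the H3K4me3 peak 8550 bp in knockdown and 8077 bp in control. The ZNF207 promoter holds 21 CpG and the CEBPA promoter 50, where the median of the 35116 promoters in the table is 14. The motif TATAAA, searched on both strands, is in the CEBPA window and not in the ZNF207 window, and 11.5% of all promoters hold it.
ZNF207 promoter (plus strand, chr17:32349907-32350206, GRCh38.p14): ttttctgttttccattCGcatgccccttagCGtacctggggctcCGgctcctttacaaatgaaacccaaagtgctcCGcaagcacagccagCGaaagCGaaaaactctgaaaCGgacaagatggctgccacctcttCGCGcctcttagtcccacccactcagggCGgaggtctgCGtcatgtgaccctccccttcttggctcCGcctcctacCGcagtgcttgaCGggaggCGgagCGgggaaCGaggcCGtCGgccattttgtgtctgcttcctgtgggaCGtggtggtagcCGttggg
CEBPA promoter (minus strand, chr19:33302485-33302784, GRCh38.p14): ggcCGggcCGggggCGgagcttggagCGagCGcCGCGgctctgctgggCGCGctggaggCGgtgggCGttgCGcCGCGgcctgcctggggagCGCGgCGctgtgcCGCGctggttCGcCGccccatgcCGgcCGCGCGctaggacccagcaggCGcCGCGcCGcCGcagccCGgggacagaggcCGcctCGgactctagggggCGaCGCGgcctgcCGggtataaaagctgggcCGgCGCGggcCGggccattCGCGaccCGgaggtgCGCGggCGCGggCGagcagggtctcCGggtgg

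The sites were narrow. Their matching knockdown peaks had a median width of 948.5 bp (quartiles 638 and 1836.5 bp) and their control peaks 760.5 bp (the list's minimum and 1182 bp). The narrowest width in the Pol II lists, just over 500 bp and called the minimum width below, was found at 92 sites in knockdown, 132 in control and 45 in both. The widest reached 17326 bp in knockdown and 6729 bp in control. A single knockdown peak overlapped 435 sites, and 2 knockdown peaks overlapped each of the other 15. Of the sites, 229 (50.9%) had at least 50% of each peak within the other, and 21 sites rested on an overlap under 100 bp. Where knockdown had several peaks at a site, the one with the most overlap was used.

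**Figure D1:**
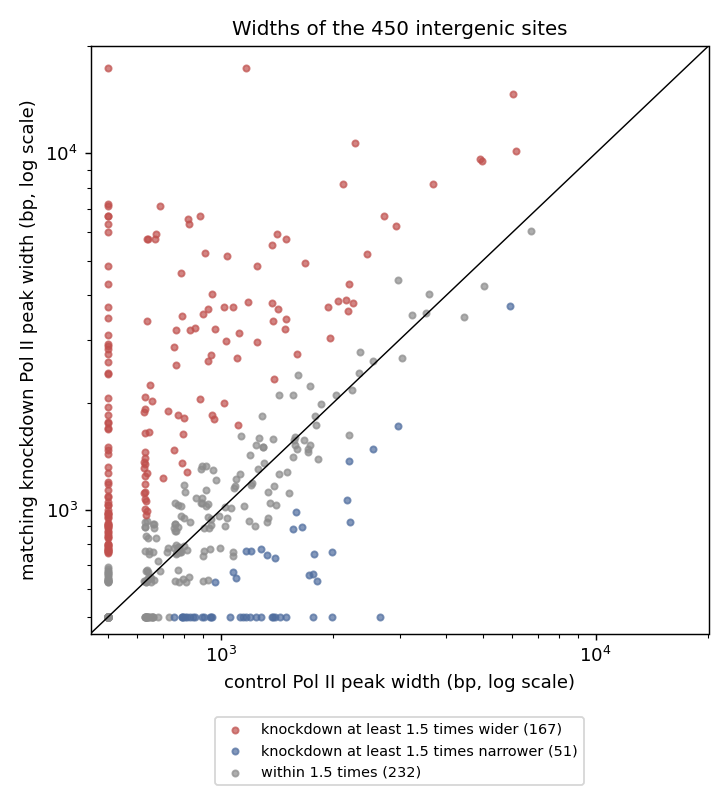
Width of the matching knockdown Pol II peak (vertical axis, bp, log scale) against width of the control Pol II peak (horizontal axis, bp, log scale), 1 point for each of the 450 sites, with the line of equal width. Of the points, 167 are at least 1.5 times wider in knockdown, 51 at least 1.5 times narrower and 232 within that range, and the column of points at the left edge holds the 132 sites at the minimum width in control.

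Among the widest sites in control, those described here lay next to genes of several kinds. The widest, chr3:26553652-26560380, was 6059 bp in knockdown and 6729 bp in control and lay over 50 kb from its nearest gene, LRRC3B-AS1. The site on the 5' side of ZC3H7A, a zinc finger gene, at chr16:11804137-11810149, was 14621 bp in knockdown and 6013 bp in control, and the knockdown peak ran into a gene. By the peak with the most overlap, the first was somewhat narrower in knockdown and the other wider. Another knockdown peak also overlapped the first site, so its narrower width does not show less DNA covered.

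On the 3' side of ZNF207, the site chr17:32392135-32398039 was 3722 bp in knockdown and 5905 bp in control. The knockdown peak was one of 2 that covered it. On the 3' side of AFF1, which encodes a scaffold of the super elongation complex of Pol II, the site chr4:87147164-87152204 was 4233 bp in knockdown and 5041 bp in control. There too the knockdown peak was one of 2 at the site. Next to FBXL18, an F-box gene, chr7:5444254-5449172 was 9652 bp in knockdown and 4919 bp in control.

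Further wide sites lay near TRIB3, SUGP2 and ID2. The site on the 5' side of TRIB3, a stress-induced pseudokinase gene, at chr20:371059-375519, was 3476 bp in knockdown and 4461 bp in control. The site on the 3' side of SUGP2, chr19:18969639-18973326, was 8198 bp in knockdown and 3688 bp in control. The site over 100 kb from ID2, an inhibitor of helix-loop-helix transcription factors, at chr2:8542452-8546041, was 4025 bp in knockdown and 3590 bp in control. Of the wide sites described, those near ZC3H7A, FBXL18 and SUGP2 were at least 1.5 times wider in knockdown, and the one near ZNF207 was at least 1.5 times narrower.

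The comparison of conditions at these sites sets the width of the matching knockdown Pol II peak against that of the control peak. The full knockdown peak counts, also where it lies outside the site, and a median of 55.7% of it lay within the control peak. The ratio is thus no direct measure of how much DNA of the site was covered. Peak width is the value used, since the authors' score is 1 at every peak. Counted from the control list, 268 sites were wider in knockdown, 136 narrower and 46 equal, with a median knockdown to control ratio of 1.17. The knockdown peak was at least 1.5 times wider at 167 sites, 37.1% (exact 95% interval 32.6 to 41.8, counting error only), and at least 1.5 times narrower at 51, 11.3% (8.56 to 14.6). Over all 20409 shared control Pol II peaks under 8000 bp the median ratio was 1.11, with 27.3% at least 1.5 times wider and 11.9% at least 1.5 times narrower. Those peaks were wider than the sites, with a control median of 1501 bp. Of the 4416 shared gene-body peaks without H3K4me3, 36.7% were at least 1.5 times wider and 20.7% at least 1.5 times narrower. The share of wider peaks was thus not particular to the sites.

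The rule holds the control peak to a width limit and to a distance from genes and H3K4me3, and the knockdown peak to neither. At 47 sites the knockdown peak came within 5 kb of a gene, at 15 within 1 kb of an H3K4me3 peak, and at 9 it was 8000 bp or wider. Taken from the knockdown list by the same rule there were 422 sites with a median ratio of 1.0, of which 24.4% were at least 1.5 times wider in knockdown and 20.6% at least 1.5 times narrower. Over all 20121 shared knockdown peaks under 8000 bp these shares were 19.1% and 19.3%. Among the 373 pairs that met the rule from both lists the median ratio was 1.02, and 27.3% were wider by that measure and 13.4% narrower, against 20.7% and 13.1% of the 18536 pairs over all Pol II peaks under 8000 bp in both lists. Among peaks over the minimum width in both lists, 271 sites were left, with 35.4% wider and 8.12% narrower, against 24.5% and 9.9% of the 16831 such shared control peaks. The size of the excess of wider sites in knockdown therefore moved with the list from which the sites were taken.

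**Figure D2:**
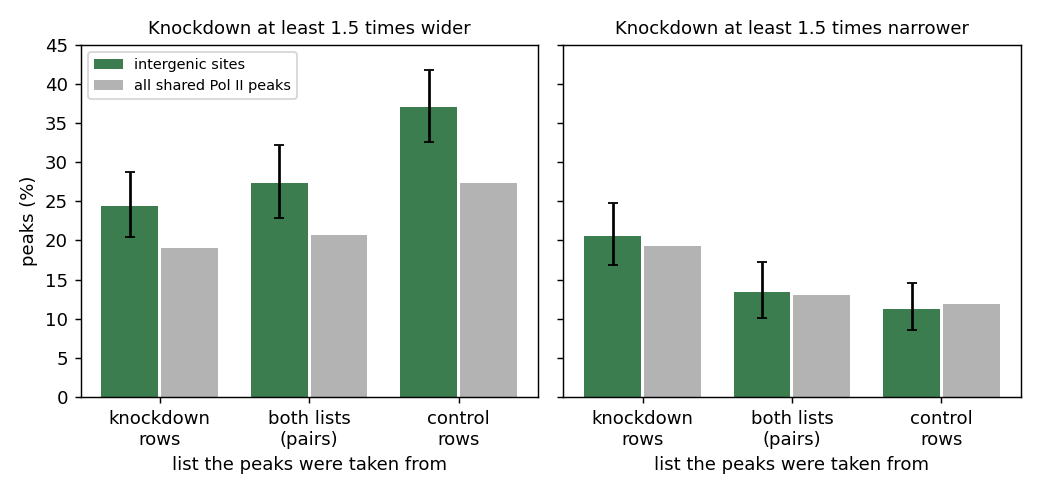
Share of peaks (percent) whose knockdown peak was at least 1.5 times wider (left panel) or narrower (right panel) than its control peak, for the intergenic sites (green, with exact 95% intervals) and all shared Pol II peaks (grey), with the peaks taken from the knockdown list, from pairs that met the rule in both lists, or from the control list. The green bar for wider peaks is 24.4%, 27.3% and 37.1% in that order, and the grey bar 19.1%, 20.7% and 27.3%.

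The extremes of the ratio were sites at which 1 list had a long peak and the other a short one. Among sites with a peak of at least 1000 bp in either list, the highest ratios were at a pair of sites next to SNHG32, with NEU1, a lysosomal sialidase gene, as the nearest protein-coding gene. They were overlapped by the same 17326 bp knockdown peak, chr6:31829754-31847079, which also overlaps a gene, while 1 control peak had the minimum width and the other 1168 bp. The site on the 3' side of DNAJB12, a chaperone gene of the endoplasmic reticulum, at chr10:72315557-72316057, was 7201 bp wide in knockdown and of minimum width in control. Its knockdown peak ran into H3K4me3 peaks of both conditions. The site on the 3' side of CDC42EP3, chr2:37635258-37635758, was 7110 bp in knockdown and of minimum width in control, and this knockdown peak also overlaps a gene. At KCMF1, a ubiquitin ligase gene, the site chr2:84960279-84960779 lay in a 6679 bp knockdown peak and was of minimum width in control. The ratios at the last 3 sites were 14.4, 14.2 and 13.3, and those at SNHG32 were 34.6 and 14.8. The 34.6 rested on an overlap of 57 bp.

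The 5 lowest ratios all had a peak of minimum width in knockdown. The site on the 5' side of CITED2, over 100 kb from this gene, which encodes a partner of the coactivators CBP and p300, at chr6:139686725-139689381, was 2657 bp wide in control, and the ratio of knockdown to control width was 0.189. The next site was 1978 bp wide in control and lay over 50 and up to 100 kb from EFCAB11, with a pseudogene closer. Then came control widths of 1766 bp on the 3' side of ZNF66 and 1495 bp near PCIF1. PCIF1 encodes the enzyme that methylates the first adenosine of mRNA.

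The rule set no side of a gene and, beyond the 5 kb limit, no distance from one. Its H3K4me3 limit can still bear on the side, since that mark lies at active promoters, at the 5' ends of genes. How far it shaped the shares below was not tested. The nearest gene was protein-coding at 246 sites, a long non-coding RNA gene at 123 and a pseudogene at 59. It lay between 5 and 10 kb away at 235 sites, over 10 and up to 20 kb at 125, over 20 and up to 50 kb at 75 and over 50 kb at 15. A strand was known for the nearest gene of 286 sites. The other 164 included the sites beside pseudogenes and some beside protein-coding and long non-coding RNA genes, so the shares do not cover all gene kinds. Of these, 202 lay on the 3' side of the gene and 84 on the 5' side, 70.6% (exact 95% interval 65.0 to 75.8) on the 3' side.

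The 3' side prevailed close to genes. It held 117 of 155 sites between 5 and 10 kb from the nearest gene, 75.5% (67.9 to 82.0), 55 of 78 over 10 and up to 20 kb away, 70.5% (59.1 to 80.3), and 26 of 46 over 20 and up to 50 kb away, 56.5% (41.1 to 71.1). Measured to the nearest protein-coding gene alone, with a strand for 355 sites, the 3' share was 75.5% at 5 to 10 kb (105 of 139), 61.2% over 10 and up to 20 kb (41 of 67), 41.7% over 20 and up to 50 kb (30 of 72) and 32.5% beyond (25 of 77). UBE2K, which encodes a ubiquitin-conjugating enzyme, and ZFC3H1, which takes part in nuclear RNA decay, are further examples, named after their values were seen. Their 3' sites were 1486 bp in knockdown and 2554 bp in control at chr4:39788042-39790595, and 6244 bp in knockdown and 2927 bp in control at chr12:71600544-71603470.

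Like peaks were compared with the sites on this measure. Intergenic Pol II peaks with H3K4me3 within 1 kb lay on the 3' side in 56.7% of cases (199 of 351). The sites exceeded them by 13.9 percentage points (Newcombe 95% interval 6.43 to 21.2). By distance this was 18.7 points (7.97 to 29.0) at 5 to 10 kb and 9.96 (-3.95 to 22.9) over 10 and up to 20 kb. Over 20 and up to 50 kb it was 0.678 (-17.1 to 18.0). The rule's own H3K4me3 limit separates these peaks from the sites, so the difference is a description and no independent result. Peaks of the control list alone without H3K4me3 lay on the 3' side in 72.7% (256 of 352), and the sites differed from these by -2.1 points (-9.15 to 4.87). Measured to protein-coding genes alone, the sites lay on the 3' side in 56.6% and peaks of the control list alone in 65.1%, a difference of -8.46 points (-15.3 to -1.58). Peaks of the knockdown list alone gave 66.3% by any gene (389 of 587) and 56.4% by protein-coding genes alone (411 of 729). The prevalence of the 3' side was thus not higher at the sites than at peaks of the control list alone by either measure.

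**Figure D3:**
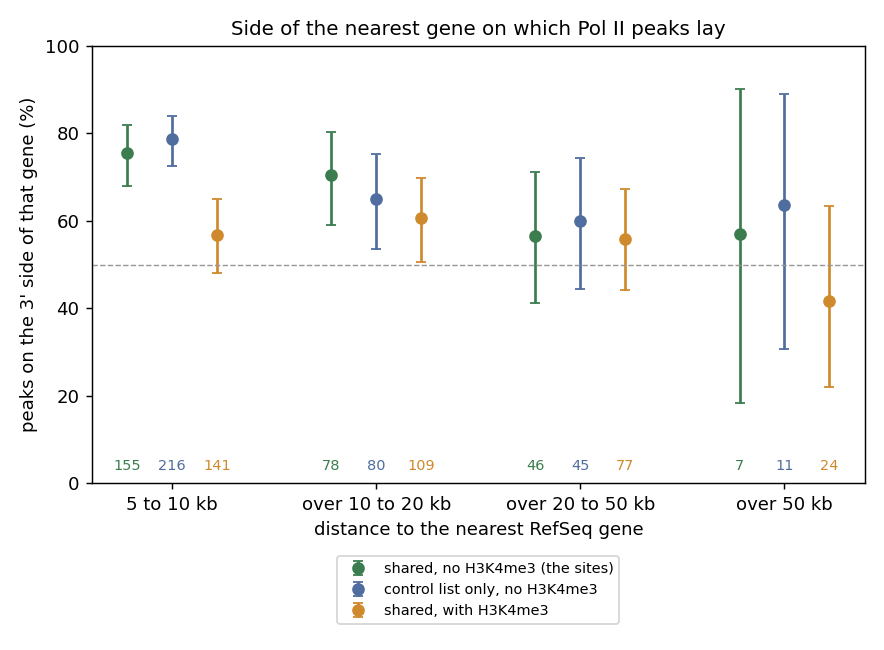
Share of intergenic Pol II peaks (percent, vertical axis) that lay on the 3' side of their nearest RefSeq gene, by distance to that gene (horizontal axis), with exact 95% intervals and the number of peaks with a known strand printed at the foot. The sites (green) fall to 56.5% at over 20 and up to 50 kb from 75.5% at 5 to 10 kb, peaks of the control list alone (blue) lie close to them, and shared peaks with H3K4me3 (orange) are at 56.7% at 5 to 10 kb.

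Width hardly separated the sides. Sites on the 3' side had median widths of 1060.5 bp in knockdown and 755 bp in control, and 41.1% (34.2 to 48.2) were at least 1.5 times wider in knockdown. Sites on the 5' side had medians of 917 bp in knockdown and 709.5 bp in control, and 39.3% (28.8 to 50.5) were wider by that measure. The share at least 1.5 times wider in knockdown was 45.5% (39.0 to 52.1) at 5 to 10 kb from a gene and 28.0% (20.3 to 36.7) over 10 and up to 20 kb. Without the sites whose knockdown peak came within 5 kb of a gene these shares were 37.6% (30.6 to 44.9) and 27.4% (19.8 to 36.2). The share was 30.7% (20.5 to 42.4) over 20 and up to 50 kb and 13.3% (1.66 to 40.5) beyond. Among the distance classes, only the sites at 5 to 10 kb thus had an interval wholly above the 27.3% of all shared peaks. The 36.7% of shared gene-body peaks without H3K4me3 lay above that 27.3% too. Beside protein-coding genes 44.7% (38.4 to 51.2) of sites were wider by that measure. The share was 30.1% (22.1 to 39.0) beside long non-coding RNA genes and 16.9% (8.44 to 29.0) beside pseudogenes. These shares were counted from the control list, with knockdown peaks within 5 kb of a gene kept in. For the last 2 kinds the interval included the 27.3%. Medians beside protein-coding genes were 1035 bp in knockdown and 695 bp in control, and beside pseudogenes 783 bp in knockdown and 787 bp in control.

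The genes beside the sites mostly carried both marks at their own start. Within 20 kb, 127 protein-coding genes had a site on their 3' side. H3K4me3 lay within 1 kb of the start in both lists at 116 of them, 91.3% (85.0 to 95.6), and Pol II at 113, 89.0%. Genes with a site on their 5' side within 20 kb had H3K4me3 at the start in 45 of 55 cases, 81.8% (69.1 to 90.9), and Pol II in 42, 76.4%. Over all 15843 protein-coding genes with a strand the shares were 67.1% and 57.3%. Pol II at the 3' end itself was found at 51 of the 127 genes in knockdown, 40.2% (31.6 to 49.2), and 45 in control, 35.4% (27.2 to 44.4). Among the 10629 protein-coding genes with H3K4me3 at the start in both lists those shares were 35.3% in knockdown and 33.4% in control. Genes with a site on their 5' side had Pol II at their 3' end in 26 of 55 cases in knockdown, 47.3% (33.7 to 61.2), and 24 in control, 43.6% (30.3 to 57.7). In both lists at once it lay at the 3' end of 24.4% (17.2 to 32.8) of genes with a site on the 3' side and 36.4% (23.8 to 50.4) of those with one on the 5' side, against 27.1% of genes with H3K4me3 at the start. Pol II at the 3' end was thus not shown to be more frequent where the site lay on that side.

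Part of the sites lay in short stretches. Another site was found within the stitching distance, which lies between 12 and 13 kb and is often used to join enhancers into clusters, at 100 sites (22.2%), which form 44 stretches, 35 of them with 2 sites, 6 with 3 and 3 with 4. Any other control Pol II peak lay that close to 295 sites (65.6%), at a median gap of 4584.5 bp over all sites. Sites in stretches were wider, with medians of 1842.5 bp in knockdown and 926.5 bp in control, against 892 bp in knockdown and 752 bp in control for the other 350. At least 1.5 times wider in knockdown were 60.0% (49.7 to 69.7) of the sites in stretches and 30.6% (25.8 to 35.7) of the others. A knockdown peak that spans several sites counts once for each, and 35 sites shared theirs with another site. For all shared Pol II peaks no such shares were counted. The 22.2% and the 60.0% are therefore not shown to be traits of the sites. Among the 373 pairs that met the rule from both lists, 12.9% had another such site within the stitching distance.

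The stretches of 4 sites included those near SHOC2, which encodes a scaffold of RAS signalling, and KCMF1. Before KCMF1, on chromosome 2 from 84958626 to 84965652, a single knockdown peak of 6679 bp overlapped all 4 control peaks, a pair of minimum width and others of 2726 and 883 bp. Past the 3' end of SHOC2, on chromosome 10 from 111023911 to 111040037, knockdown peaks of 3711, 630 and 836 bp stood against control peaks of minimum width, 1019, 628 and 640 bp. In both stretches 1 knockdown peak overlapped more than 1 site. The other peaks at SHOC2 were of 630 bp in knockdown and 628 bp in control, and of 836 bp in knockdown and 640 bp in control.

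Joined sites also marked most stretches of 3. Over 100 kb from UQCRFS1, which encodes the Rieske subunit of respiratory complex III, a knockdown peak of 5756 bp overlapped control peaks of 1496, 635 and 667 bp. Near EMB, knockdown peaks of 3793 and 963 bp stood against control peaks of 1370, 2248 and 992 bp. On the 3' side of SUGP2, knockdown peaks of 8198 and 1138 bp stood against control peaks of 2116 and 3688 bp and 1 of minimum width. On the 5' side of EYA3, knockdown peaks of 1353 and 1646 bp stood against control peaks of 789, 1304 and 627 bp. In each of these 4 stretches, sites shared a matching knockdown peak. Only matched knockdown peaks were counted, so their number could not exceed that of the control peaks. Knockdown peaks that matched no site were left out.

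**Figure D4:**
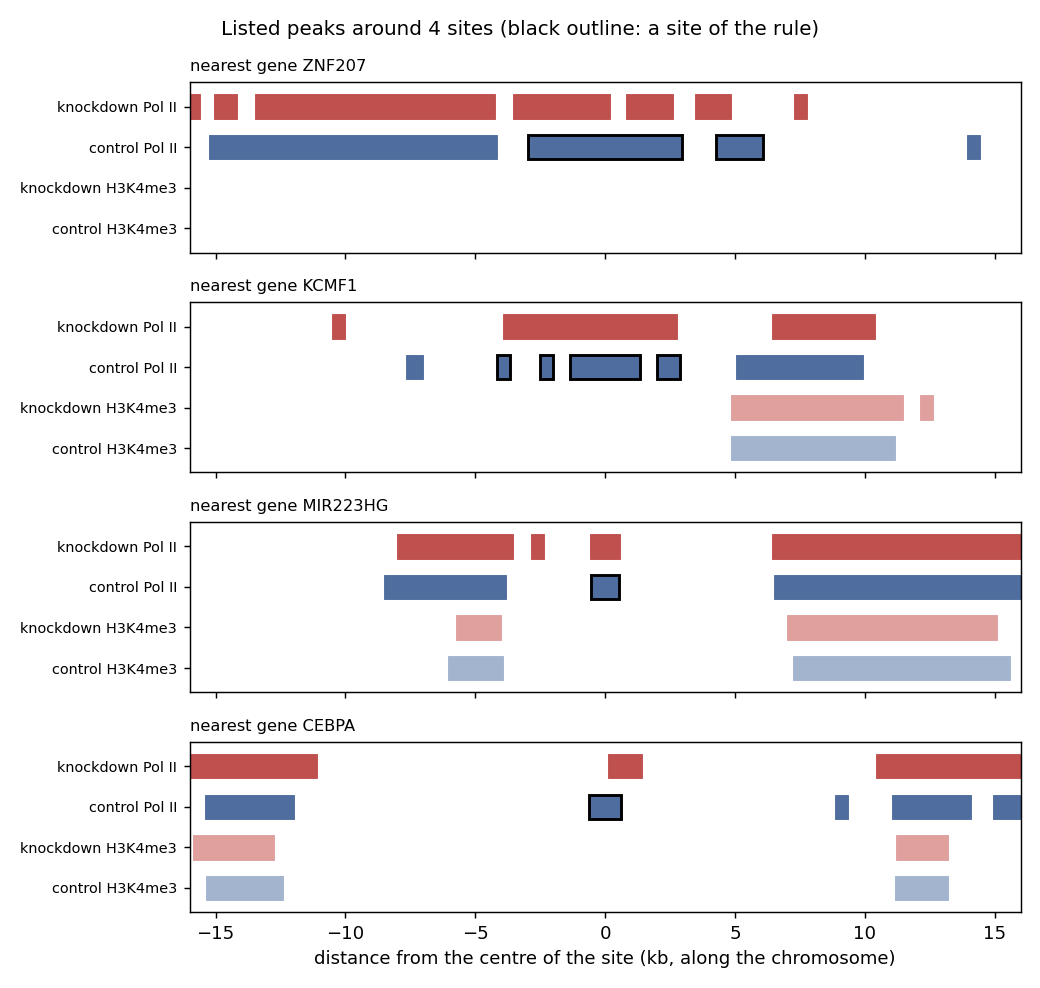
Listed Pol II and H3K4me3 peaks in knockdown and control (rows) against distance from the centre of a site (kb, along the chromosome) for the sites nearest to ZNF207, KCMF1, MIR223HG and CEBPA, with sites of the rule outlined in black. At KCMF1 the 6679 bp knockdown peak overlaps all 4 control sites, and at MIR223HG the peak has nearly the same ends in both lists, 1169 bp in knockdown and 1094 bp in control.

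By number of sites, the protein-coding genes most often nearest included CITED2, KCMF1, SHOC2 and UQCRFS1, with 4 each. ATP8B4, CHD2, a chromatin remodeller, EMB and EYA3 had 3 each, as did GPCPD1, PTBP2, SUGP2 and a locus without a symbol of its own. In all, 379 protein-coding genes were nearest to a site. Past the 3' end of PTBP2, a splicing regulator, the 3 sites had 2 minimum-width peaks and 1 of 1829 bp in knockdown, and peaks of 662 bp, minimum width and 1287 bp in control. Past the 3' end of ATP8B4 they had 629 bp, 1000 bp and minimum width in knockdown, and 632 bp and 2 of minimum width in control. Each site at these genes had a knockdown peak of its own.

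Some myeloid genes were the nearest protein-coding gene of a site. Of all 20037 protein-coding genes 379 were, 1.89%, and the share of each list below rests on few genes. Of 35 myeloid transcription factor genes 3 were nearest to a site, 8.57%, namely ID2, CEBPA and RUNX3. Only CEBPA, over 10 and up to 20 kb away, was the nearest gene of any kind. ID2 lay over 100 kb from its site and RUNX3 over 50 and up to 100 kb, each with a long non-coding RNA gene closer. The spacing of genes, which bears on how often a gene is nearest, was not taken into account. The CEBPA site, chr19:33280727-33281982, was 1303 bp in knockdown and 1256 bp in control, and each peak reached past the other. The RUNX3 site, chr1:25034076-25035313, was 904 bp in knockdown and 1238 bp in control and lay 44621 bp from the nearest knockdown H3K4me3 peak and 44873 bp from the nearest control one. Of 30 macrophage and monocyte genes, 2 were nearest to a site, 6.67%. One was VSIG4, a complement receptor gene, through the site at MIR223HG. The other was CSF2RA, a chain of the GM-CSF receptor, with a peak of 1435 bp in knockdown and of minimum width in control at chrX:1249159-1249659, in a region that X and Y share, so that reads from either chromosome could have been placed there.

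Of 24 leukaemia growth genes, ETS2 alone was nearest, to 2 sites over 100 kb away that the same 1846 bp knockdown peak overlapped, 1 of them by 11 bp. Their control peaks were of 946 bp and of minimum width. Of 23 immediate early genes, ZFP36L1, which encodes an mRNA decay factor, had a site of minimum width in knockdown and 645 bp in control on its 3' side. The lists of 24 chemokine and cytokine genes and of 16 protein-coding nuclear RNA and splicing genes had no member nearest to a site, and both are incomplete. Outside them, and named after their values were seen, the chemokine gene CCL24 was nearest to a site of 898 bp in knockdown and 772 bp in control, at chr7:75842739-75843510. The splicing factor gene SRSF4 was nearest to a site of 3851 bp in knockdown and 2052 bp in control, at chr1:29140596-29142647. TIA1, which encodes an RNA-binding regulator of splicing and translation, was nearest to a site of 3884 bp in knockdown and 2160 bp in control, at chr2:70201757-70203916. Of 35 genes of other cell types, PAX5, a B-cell factor, was nearest to 1 site, of 678 bp in knockdown and 637 bp in control. These lists were chosen with earlier results of these data known.

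Distance from H3K4me3 was bounded by the rule and is given as a description. The nearest peak of either list was a median of 19622 bp away, against 20031 bp for the like peaks of the control list alone. At 71 sites it was within 5 kb, and 102 sites lay more than 50 kb from any. The farthest, chr7:46320471-46321567, was 397083 bp away, over 100 kb from its nearest protein-coding gene IGFBP3, and was 645 bp in knockdown and 1097 bp in control. Chromosomes with at least 1 site numbered 23. The number of sites for every 1000 control Pol II peaks was highest on chromosome 10 at 21.4, with 28 sites, and lowest on chromosome 12 at 5.65, with 9 sites.

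QKI5 CLIP peaks mark bound RNA, and the rule kept the sites away from annotated genes, so little overlap was possible from the start. Of 450 sites 0 were overlapped by a knockdown CLIP peak and 0 by a control CLIP peak. By counting error this allows a share of up to about 0.667%, an approximate limit taken as 3 counts over 450. Of the 566 intergenic peaks of the control list alone 0 were overlapped by either. Of all control Pol II peaks 0.24% were overlapped by a knockdown CLIP peak and 1.77% by a control one. Within the stitching distance there was a CLIP peak at 1 site in knockdown, near HNRNPR, and at 19 in control. No such count was made for other Pol II peaks, so these numbers are no trait of the sites. Over all 20037 protein-coding genes, 365 held a CLIP peak in knockdown and 2780 in control. The control CLIP peaks near sites included an AFF1 peak of 11 reads 8573 bp from its site. Another was an FBXL18 peak of 11 reads 6337 bp from its site. Both are named because they lie beside 2 of the widest sites. Knockdown Pol II peaks of 3 sites held a control CLIP peak, those of the pair next to SNHG32 one at the heat-shock gene HSPA1B with 104 reads and that of a site next to ZNF586 one with 11 reads.

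The genes nearest to the sites, as a group, were listed in CLIP more often than protein-coding genes at large. A knockdown CLIP peak lay in 16 of the 379 nearest protein-coding genes, 4.22%, where 1.82% of all 20037 had one. A control CLIP peak lay in 90, 23.7%, where 13.9% of all had one. Genes beside the sites also carried Pol II and H3K4me3 more often than all genes, and the part of this in the CLIP shares was not tested.

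Beside like Pol II peaks, the sites were the narrower of those found in both conditions. Shared gene-body peaks without H3K4me3, 4416 in number, had median widths of 1203.5 bp in knockdown and 914 bp in control, with 36.7% at least 1.5 times wider in knockdown and 20.7% narrower. The 586 shared intergenic peaks with H3K4me3 had medians of 1299 bp in knockdown and 1151.5 bp in control, with 22.4% wider and 9.56% narrower. The 566 intergenic peaks without H3K4me3 of the control list alone had a median at the minimum width. The minimum width was held by 29.3% of the sites, 24.5% of gene-body peaks, 11.1% of intergenic peaks with H3K4me3 and 61.3% of peaks of the control list alone.

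**Figure D5:**
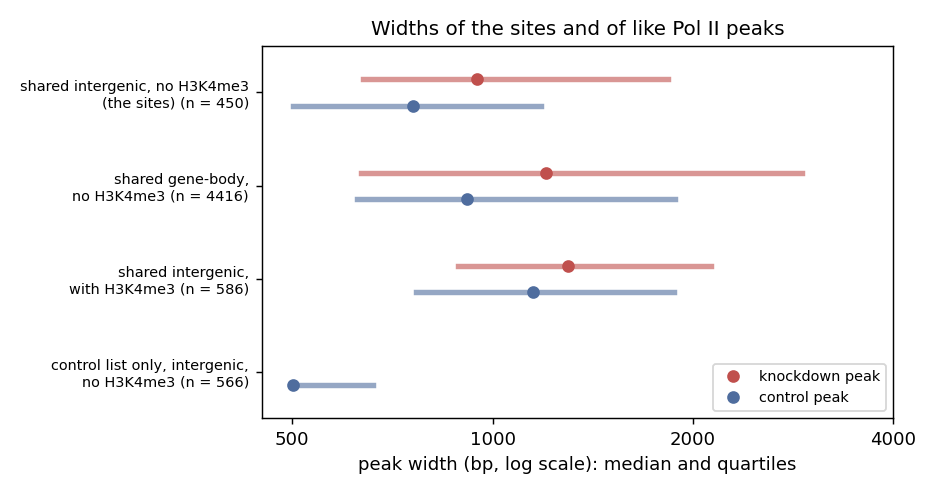
Median (points) and quartiles (bars) of peak width in bp, on a log scale, for the sites and 3 like groups of Pol II peaks (rows), with knockdown peaks in red above control peaks in blue. The sites lie at 948.5 bp in knockdown and 760.5 bp in control, below the shared gene-body peaks and the shared intergenic peaks with H3K4me3 in both conditions.

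The limits of the rule cut through a continuous range of peaks. The site nearest to H3K4me3 was 1017 bp from it, at chr14:35339595-35340095 beside PSMA6, and 24 peaks were left out for a smaller distance, the last at 984 bp. Between 5 and 6 kb from a gene lay 83 sites, and 101 peaks that met every other condition lay between 4 and 5 kb. The width limit left out 1 peak, 14267 bp wide, while the widest site had 6729 bp.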

How the data were processed

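Peak lists of Pol II ChIP, H3K4me3 ChIP and QKI5 CLIP from THP-1 cells were analysed, 6 lists in all. Per the series design text each was made by the authors from both replicates. HOMER and GRCh38.p5 stand in the submitters' processing notes, without a stated role. Aligner, caller settings and use of inputs: not given in the sources used here. In the deposited ChIP lists the score is 1 at every peak, so width (end minus start) was used. In the deposited CLIP lists, which have no header, the columns were read from their values as -log10 p and log2 enrichment. Peak widths depend on how the caller joined nearby signal.

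Gene positions and strands came from RefSeq tables of GRCh38.p14, used for neighbourhood only. A strand was found for the nearest gene of 286 of 450 sites. Overlaps and gaps were computed in Python 3.11.15 with pandas 2.3.3 and scipy 1.17.1, with functions tested on simulated peaks. Intervals are exact or Newcombe 95% intervals over peaks, which are not independent, and cover counting error only. No test between conditions was possible. The sites and lists were chosen with earlier results of these data known. Named sites are the 10 widest in control, the 5 highest and 5 lowest width ratios with a peak of at least 1000 bp, the 3 largest stretches, sites with CLIP, threshold neighbours, the genes nearest to most sites and members of the gene lists. MicroRNA neighbours and stretches of 3 were added after their values were seen. Some sites that this rule names are not reported here. Other settings tried were the overlap, starting list, H3K4me3 and gene distances, gene kinds, minimum width and width limit.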

Additional observations from a re-analysis of the deposited data

How the results depend on the processing

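No paired analysis was possible because each list pools both replicates, and for the same reason no replicate could be left out. Of 63 values recomputed under other settings, 34 stayed within the counting interval or, for the number of sites, within 1.5 times, and 29 did not. For these the cause was not tested beyond what each setting itself removes. With at least 50% of each peak covered by the other, 229 sites were left, with a median knockdown width of 888 bp, a median ratio of 1.01, 17.9% wider and 6.55% narrower in knockdown by at least 1.5 times, and 9.17% with another site within the stitching distance. Taken from knockdown rows, the median knockdown width was 862.5 bp, the ratio 1.0, and the 3 shares 24.4%, 20.6% and 17.8%. Over 20 kb from any gene, 90 sites were left, with medians of 820 bp in knockdown and 663 bp in control, 27.8% wider and 7.78% narrower. With protein-coding genes alone barred, 873 sites were found and 29.4% had a neighbour. Peaks over the minimum width in both lists gave 271 sites, with medians of 1271 bp in knockdown and 943 bp in control, and 8.12% narrower. A pair of settings was added after seeing the data. With the knockdown peak also held to the rule, its median width was 897 bp, the ratio 1.06 and 30.5% were wider. Among pairs that met the rule from both lists these were 870 bp, 1.02 and 27.3%, and 12.9% had a neighbour. No H3K4me3 within 5 kb and no width limit moved no value out of its range. For the 50% cover, the 20 kb limit and the knockdown peak held to the rule, no share over all shared peaks was counted. Cover of 50% also bounds the width ratio, so its 17.9% cannot be read against the shares over all peaks given above. The depth of the libraries is unknown, so weaker Pol II or H3K4me3 signal at any site cannot be assessed.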
